A study of Homo sapiens with 10 samples.

Results

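The 47 genes described here were listed as heat shock chaperones of the cytosol and of mitochondria, with co-chaperones and the transcription factors HSF1 and HSF2. The heading is broad, and not every member is a chaperone of these compartments. They were taken by name: 9 members of the HSP70 and HSP110 families, 13 J-domain proteins, 4 BAG proteins, 7 proteins of the HSP90 machinery, 2 subunits of the mitochondrial chaperonin, 2 genes of the small heat shock or related group and 8 subunits of the cytosolic chaperonin TRiC/CCT, beside the 2 heat shock factors. All 47 had a probe on the array. Of these, 46 had a probe bright enough to be tested, among 17379 genes tested in all, and CCT5 did not, since its only probe exceeded background clearly on 1 scrambled array and on no miR-1225-3p array. The samples were MEG-01 cells, an established human megakaryoblastic leukemia cell line used in place of megakaryocytes. They were nucleofected with 200 nM of a precursor of miR-1225-3p or with 200 nM of a scrambled negative control precursor, and RNA was purified after 24 h. Each group had 5 Agilent arrays. The titles and the treatment protocol describe both groups as transfected, although the source label of the control samples reads "no treatment", and the control is called scrambled here after the titles. The comparison addresses which mRNAs changed in a megakaryocytic line when miR-1225-3p was raised.

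Chaperones bind unfolded or partly folded proteins and use cycles of ATP binding and hydrolysis to help them fold. HSP70 proteins are loaded by J-domain proteins and emptied by nucleotide exchange factors such as the BAG and HSP110 proteins, and clients such as kinases and hormone receptors then pass to HSP90. TRiC/CCT folds actin and tubulin in a closed chamber, HSPD1 and HSPE1 form the matching chamber in mitochondria, and HSF1 induces many of these genes when misfolded proteins build up by binding heat shock elements in their promoters.

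The microRNA that was raised is shown first, since it defines the treatment, with its seed (bases 2 to 8) in capitals. It lies at chr16:2090195-2090216 on the minus strand (GRCh38.p14, sequence from RefSeq).
hsa-miR-1225-3p: uGAGCCCCugugccgcccccag

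Promoter stretches of 5 members are shown next because they hold the best-known control element of these genes, the 3-unit heat shock element TTCNNGAANNTTC (N is any base, searched on both strands, overlapping matches allowed). A RefSeq promoter of GRCh38.p14, from 250 bases before to 50 bases after an annotated start, was found for 43 of the 47 genes. The element was present for 6 of these 43 genes, against 0.490% of all 35116 promoters, and in 10.3% of the 58 promoters that the 43 genes have between them. Capitals mark the element or its reverse complement, and each sequence is read 5′ to 3′ in the direction of transcription. The stretches are chr11:123062154-123062216 (minus strand), chr14:102087095-102087157 (minus), chr6:44247753-44247868 (plus), chr2:197500043-197500090 (minus) and chr7:157336848-157336910 (plus), in the order shown.
HSPA8: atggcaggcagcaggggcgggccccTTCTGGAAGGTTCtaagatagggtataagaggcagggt
HSP90AA1: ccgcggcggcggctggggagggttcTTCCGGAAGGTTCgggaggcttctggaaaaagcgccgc
HSP90AB1: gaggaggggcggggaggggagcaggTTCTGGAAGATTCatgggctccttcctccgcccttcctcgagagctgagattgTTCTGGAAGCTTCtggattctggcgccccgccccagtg
HSPD1: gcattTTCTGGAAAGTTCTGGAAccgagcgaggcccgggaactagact
DNAJB6: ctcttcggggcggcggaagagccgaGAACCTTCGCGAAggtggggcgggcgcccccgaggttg
HSPA8 has a further match, at positions -230 to -218 from its start. The remaining gene of the 6 is DNAJA1, whose match begins 3 bases after the start and is not shown. HSPD1 has a pair of matches on opposite strands that overlap, and HSP90AB1 has 2 matches on the same strand. The HSPD1 stretch lies inside the span of that gene (chr2:197486584-197500274), so its window belongs to an annotated start within the gene. A match is a description of the letters in these windows and not a bound site. Only exact matches were counted, so a gene without one is not shown to lack a heat shock element.

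Between 41.95% and 61.18% of the spots of an array were well above background, and no spot was saturated. miR-1225-3p replicate 5 stood apart from its group: on the first principal component over all genes (69.6% of the variance) it scored 56.74, inside the scrambled range of 48.65 to 79.87, while replicates 1 to 4 scored between -133.4 and -52.98. It was kept in the comparison, and values without it are given beside the results. Of 10 markers of megakaryocytic cells, 7 were tested, among them ITGA2B, GATA1, TAL1 and NFE2 on all 10 arrays, whereas PF4 was not well above background. All 7 had log2 fold changes below 0, and 3 were called lower: ITGA2B (-1.39, adjusted p = 0.0437), FLI1 (-0.60, adjusted p = 0.0289) and NFE2 (-0.43, adjusted p = 0.0255). GP9 (-1.20), GATA1 (-1.04), ITGB3 (-0.46) and TAL1 (-0.21) were not called, and after 75th percentile scaling NFE2 (0.13) and TAL1 (0.21) were above 0. Of the 3 calls only that of FLI1 was kept after 75th percentile scaling (-0.58, adjusted p = 0.0291). None was kept after quantile normalization (adjusted p = 0.0565 for ITGA2B, 0.0607 for NFE2 and 0.0781 for FLI1). The summed linear level of the 7 was 7000 to 8710 on the miR-1225-3p arrays and 10200 to 11900 on the scrambled arrays. Of 8 genes listed as markers of other cell types, 5 were tested, and MS4A1 and ALB were among those not bright enough. The summed linear level of the 5 was 3860 to 7860 on the miR-1225-3p arrays and 3160 to 3840 on the scrambled arrays, mostly from EPCAM, which was higher in miR-1225-3p cells (log2 fold change 0.90, adjusted p = 0.0156). CD3E was also called higher (1.96, adjusted p = 0.0327), with a signal well above background on 3 miR-1225-3p arrays and 1 scrambled array, whereas CD14 (0.36), COL1A1 (-0.75) and PECAM1 (-0.43) were not called. EPCAM and PECAM1 were well above background on all 10 arrays, and whether any of these 5 genes marks other cells here was not tested. The part of both marker lists in the chaperone results was not tested.

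Transfection with miR-1225-3p was followed by changes in both directions within the chaperones. At an adjusted p under 0.05 by limma (Benjamini-Hochberg over all genes), 19 of the 46 tested members (41.3%) changed, against 35.0% of all genes tested. Of these, 11 rose (HSPA1A, HSPA4, HSPA14, HSPH1, DNAJA2, DNAJC2, DNAJC8, BAG1, BAG2, HSP90AA1 and HSPD1), against 17.0% of all genes, and 8 fell (HSPA2, HSPA8, DNAJB1, DNAJC10, BAG3, STIP1, FKBP4 and CCT3), against 18.1%. With a fold change over 2 as a further condition 7 members remained, 2 higher and 5 lower, against 17.4% of all genes. These shares lie near those of all genes. In a culture measured in bulk, fewer cells that express a gene and less of its RNA per cell cannot be told apart.

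The median log2 fold change of the 46 members was 0.01, beside -0.06 for all genes, and single members ran from -2.10 (HSPA2) to 1.15 (HSPA1A and DNAJA2). The median SD between the miR-1225-3p arrays was 0.322 log2 units for the members and 0.438 for all genes, and it was 0.120 and 0.249 between the scrambled arrays. All 5 arrays of one group lay beyond all 5 of the other for 6 members, namely HSPA1A, HSPA2, DNAJC2, DNAJC8, HSP90AA1 and HSPD1, against 12.7% of all genes. The median deviation of the 11 risen members from their scrambled means was 0.72, 0.74, 0.80 and 0.89 on miR-1225-3p replicates 1 to 4 and 0.28 on replicate 5. For the 8 fallen members it was -1.07, -1.41, -1.49 and -1.69 on replicates 1 to 4 and -0.05 on replicate 5. Replicate 5 was thus on the scrambled side for the falls and nearer to it for the rises.

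**Figure D1:**
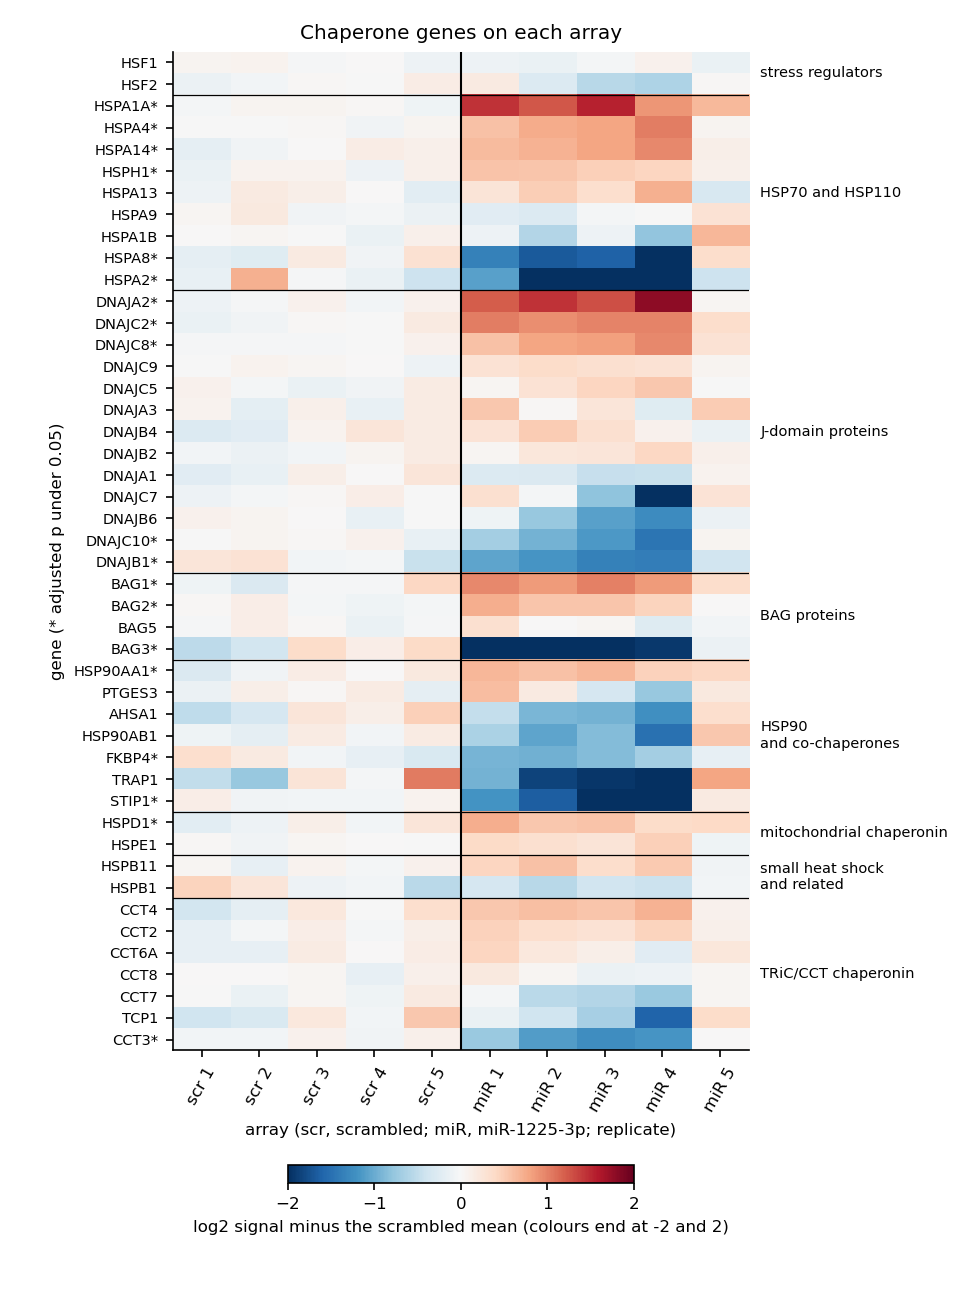
Heat map of 46 chaperone genes (rows, by role) on 10 arrays (columns), where colour is the log2 signal minus the mean of the 5 scrambled arrays and an asterisk marks an adjusted p under 0.05. The strongest colours lie on miR-1225-3p replicates 1 to 4, and replicate 5 resembles the scrambled arrays for most of the 8 fallen genes (median -0.05).

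The direction of many members depended on how the arrays were put on one scale. Scaling each array by its 75th percentile in place of cyclic loess moved the median of the members from 0.01 to 0.49 and that of all genes from -0.06 to 0.16. Relative to all genes, the members' median was 0.07 after cyclic loess, 0.11 after quantile normalization and 0.33 after 75th percentile scaling. After 75th percentile scaling 20 members rose and 4 fell, against 26.3% and 14.9% of all genes. All 11 risen members were also called higher after 75th percentile scaling and after quantile normalization. The 8 fallen members were all called lower after quantile normalization, but 75th percentile scaling kept only HSPA2, DNAJB1, BAG3 and STIP1 among them. The 8 members HSF1, HSF2, HSPA1B, HSPA9, DNAJA1, PTGES3, HSPB1 and CCT7, none of them called, were below 0 after cyclic loess and above 0 after 75th percentile scaling. The rises were larger after 75th percentile scaling, at 1.71 for HSPA1A, 1.39 for DNAJC2, 1.32 for BAG1, 1.25 for HSP90AA1, 1.19 for HSPD1 and 0.79 for BAG2. With no normalization between arrays HSPA2 alone was called, against 7.28% of all genes. Correcting the background by normexp kept the direction of all 19 called members but gave clearly smaller changes for some, with log2 fold changes of -0.66 for HSPA2, 0.65 for DNAJA2 and 0.39 for DNAJC8 and a 2.01-fold fall of BAG3.

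**Figure D2:**
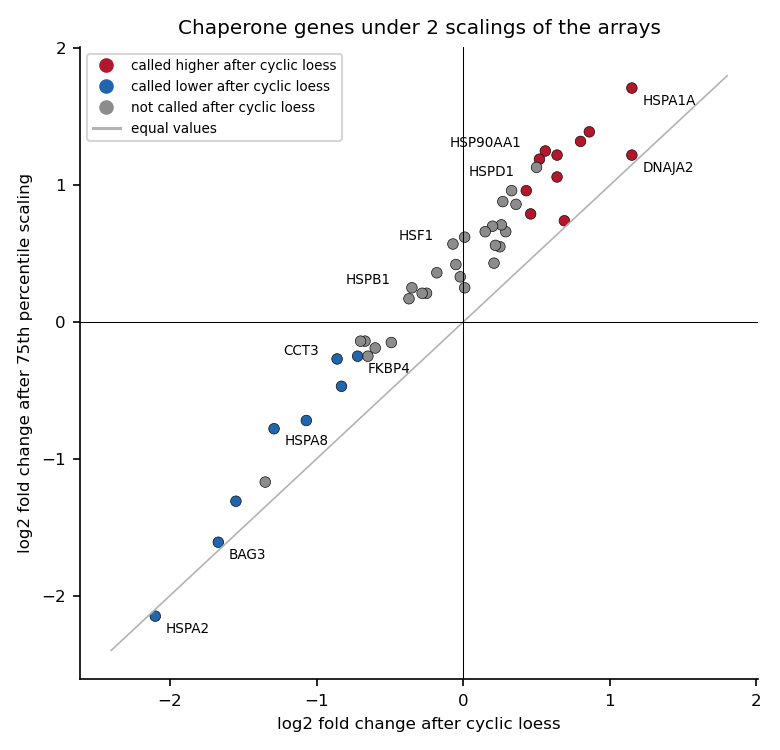
Log2 fold change (miR-1225-3p minus scrambled) of each of the 46 members after cyclic loess (x axis) and after 75th percentile scaling (y axis), with the line of equal values. Nearly all points lie above the line, by a median of 0.48, while HSPA2 and BAG3 lie close to it.

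The heat shock factors showed no called change on the probe used for each gene. HSF1, the main activator of the heat shock response, gave log2 signals of 14.35, 14.33, 14.42, 14.54 and 14.32 on the miR-1225-3p arrays and 14.51, 14.53, 14.44, 14.47 and 14.36 on the scrambled arrays. The groups overlapped, and the log2 fold change was -0.07 ± 0.107 (SE, adjusted p = 0.623), or 0.57 (adjusted p = 0.0584) after 75th percentile scaling. A second bright probe of HSF1 was called lower after cyclic loess (-0.55, adjusted p = 0.0373 over all kept probes), so its probes differ. HSF2, a related factor with roles in development and stress, read 11.09, 10.63, 10.35, 10.30 and 10.93 against 10.80, 10.86, 10.93, 10.89 and 11.06, with a log2 fold change of -0.25 ± 0.173 (adjusted p = 0.262). Its value after 75th percentile scaling was 0.21 (adjusted p = 0.31).

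Of the 9 HSP70 and HSP110 members 6 changed, 4 higher and 2 lower, against 35.0% of all genes (17.0% higher and 18.1% lower). HSPA1A, a stress-inducible HSP70, read 13.64, 13.44, 13.74, 13.09 and 12.85 on the miR-1225-3p arrays and 12.16, 12.26, 12.25, 12.22 and 12.12 on the scrambled arrays. Every miR-1225-3p array lay above every scrambled array, replicate 5 included, and the log2 fold change was 1.15 ± 0.179 (SE), a 2.22-fold rise (adjusted p = 0.013). Its call remained when any 1 array was left out. HSPA1B, the neighbouring gene for a near-identical HSP70, read 12.37, 11.88, 12.36, 11.67 and 13.12 against 12.47, 12.50, 12.46, 12.32 and 12.56, with a log2 fold change of -0.18 ± 0.243 (adjusted p = 0.564). HSPA1B was above 0 after 75th percentile scaling (0.36, adjusted p = 0.0988), and replicate 5 gave its highest value of all. The pair lies at chr6:31815543-31817942 and chr6:31827738-31830254 (GRCh38.p14). Their coding sequences are nearly the same, so a probe of one can take up RNA of the other, and the difference between them is uncertain.

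HSPA8, the constitutive HSP70 of the cytosol, was lower. It read 11.07, 10.74, 10.79 and 10.27 on miR-1225-3p replicates 1 to 4 and 12.77 on replicate 5, against 12.24, 12.17, 12.59, 12.34 and 12.71 on the scrambled arrays. Replicates 1 to 4 lay below all scrambled arrays and replicate 5 above them. The log2 fold change was -1.29 ± 0.402 (adjusted p = 0.0346) with all arrays and -1.70 (adjusted p = 0.000139) without replicate 5. The call was lost when any array other than miR-1225-3p replicate 5 was left out (-1.35 to -1.07, adjusted p between 0.0567 and 0.082) and after 75th percentile scaling (-0.78, adjusted p = 0.0539). HSPA2, an HSP70 best known from the testis, read 5.70, 4.52, 3.61, 3.25 and 6.36 against 6.63, 7.50, 6.76, 6.66 and 6.38, so that the groups did not overlap but replicate 5 lay next to the scrambled arrays. Its log2 fold change was -2.10 ± 0.559 (adjusted p = 0.0224), and only 2 of the 5 miR-1225-3p arrays had a signal well above background. It lost its call when replicate 2 (-2.05) or 3 (-1.83) of the miR-1225-3p group or replicate 2 of the scrambled group (-1.92) was left out.

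HSPA4, HSPH1 and HSPA14 of this family also rose, and they are given by value although the rule for named genes did not pick them. HSPA4 and HSPH1 encode HSP110 proteins, which release nucleotide from HSP70, and HSPA14 encodes an HSP70 relative that works on ribosomes. Their log2 fold changes were 0.64 ± 0.174 (adjusted p = 0.0236), 0.43 ± 0.131 (adjusted p = 0.0321) and 0.64 ± 0.166 (adjusted p = 0.0213). In each of them miR-1225-3p replicate 5 lay within the scrambled range. The fold changes without replicate 5 were 0.78, 0.51 and 0.77, and single-array omissions lost the call of HSPA4 in 4, HSPH1 in 8 and HSPA14 in 2 of 10 cases. HSPA9, the mitochondrial HSP70, was at -0.05 (adjusted p = 0.791), and HSPA13 was at 0.29 (adjusted p = 0.24).

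**Figure D3:**
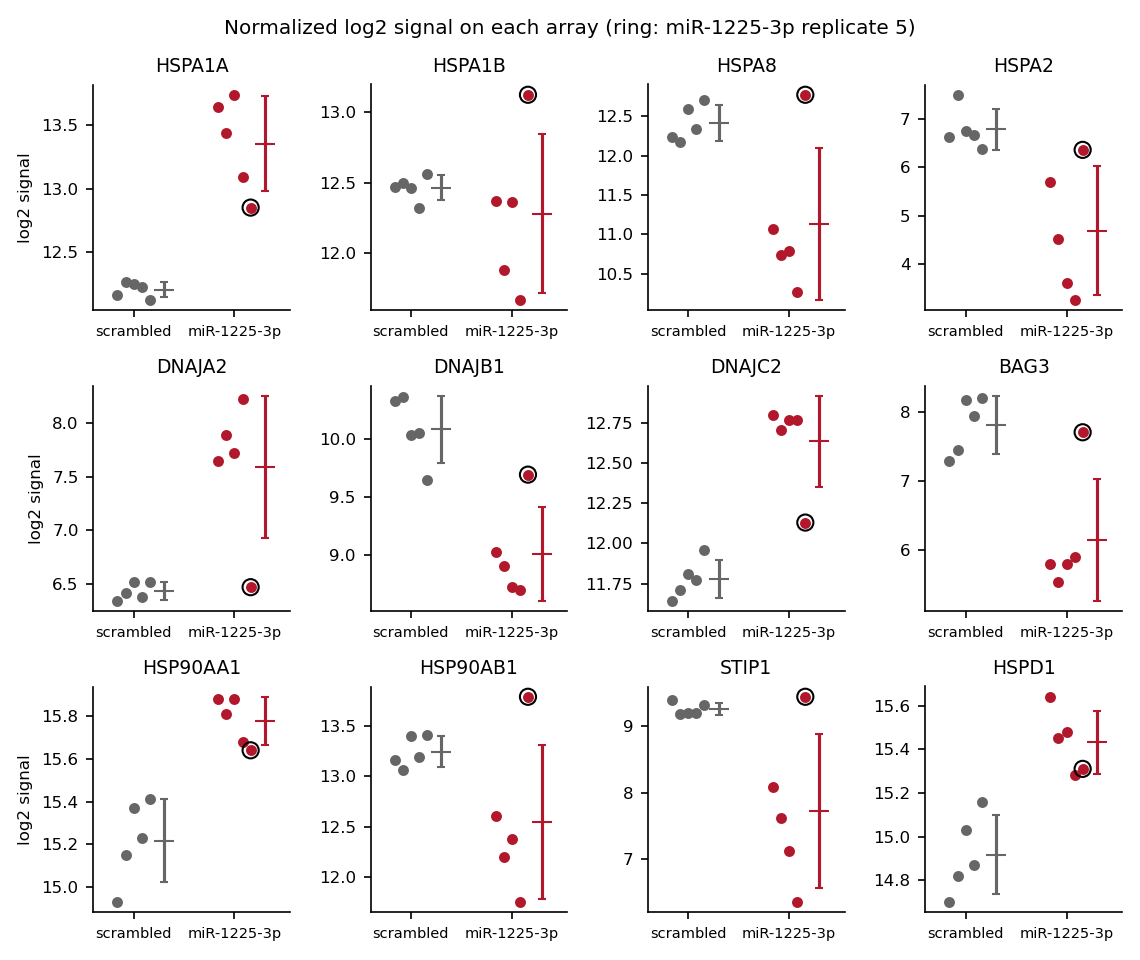
Normalized log2 signal of 12 chaperone genes on each array, scrambled in grey and miR-1225-3p in red, with the mean and SD of each group (n = 5) beside the points and a ring around miR-1225-3p replicate 5. HSPA1A, DNAJC2, HSP90AA1, HSPD1 and HSPA2 do not overlap between the groups, whereas replicate 5 of HSPA8, HSP90AB1, STIP1 and HSPA1B lies above every scrambled array.

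J-domain proteins deliver clients to HSP70 and start its ATP hydrolysis, and 5 of the 13 changed, against 35.0% of all genes. DNAJA2, a cytosolic class A J-protein, read 7.65, 7.89, 7.72, 8.22 and 6.47 on the miR-1225-3p arrays and 6.34, 6.42, 6.52, 6.38 and 6.52 on the scrambled arrays. Replicates 1 to 4 were more than a log2 unit above the scrambled arrays and replicate 5 lay among them. The log2 fold change was 1.15 ± 0.281 (adjusted p = 0.018). DNAJC2, the J-protein partner of HSPA14 on ribosomes, read 12.80, 12.71, 12.77, 12.77 and 12.13 against 11.64, 11.71, 11.81, 11.77 and 11.96. The groups did not overlap, with a log2 fold change of 0.86 ± 0.156 (adjusted p = 0.0136). DNAJC8, which is linked to pre-mRNA splicing and was named here because its groups did not overlap, rose by 0.69 ± 0.143 (adjusted p = 0.0142).

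DNAJB1, the stress-inducible partner of cytosolic HSP70, was lower. Its log2 signals were 9.02, 8.90, 8.72, 8.70 and 9.69 on the miR-1225-3p arrays and 10.32, 10.36, 10.03, 10.05 and 9.64 on the scrambled arrays. Only miR-1225-3p replicate 5 and scrambled replicate 5 overlapped. The log2 fold change was -1.07 ± 0.219, a 2.10-fold fall (adjusted p = 0.0139), and 75th percentile scaling gave -0.72 (adjusted p = 0.0165). HSPA1A and DNAJB1, both inducible by heat shock, thus moved in opposite directions in these cells. DNAJC10, a J-protein with thioredoxin domains, was also called lower on the probe used for it, but its other probe was called higher, as described with the probes. The 8 other J-domain members were between -0.67 (DNAJB6, adjusted p = 0.0507) and 0.26 (DNAJC9, adjusted p = 0.0845).

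BAG proteins release ADP from HSP70, and 3 of the 4 BAG genes changed, not all in one direction, against 35.0% of all genes. BAG3, a stress-inducible member that couples HSP70 to selective autophagy, read 5.79, 5.53, 5.79, 5.89 and 7.70 on the miR-1225-3p arrays against 7.29, 7.45, 8.17, 7.94 and 8.20. Replicates 1 to 4 lay at least a log2 unit below every scrambled array and replicate 5 lay among them. The difference on the log2 scale was -1.67 ± 0.397, a 3.19-fold fall (adjusted p = 0.0171), and was -2.06 (adjusted p = 0.000111) without replicate 5. BAG1, which also binds BCL2, rose by 0.80 ± 0.174 (adjusted p = 0.0149), and its other probes gave 0.74 and 0.60. BAG2, an inhibitor of the ubiquitin ligase CHIP, rose by 0.46 ± 0.149 (adjusted p = 0.0396), a call lost when any array but miR-1225-3p replicate 5 was left out (0.39 to 0.49, adjusted p between 0.0595 and 0.0923). BAG5 was at 0.01 (adjusted p = 0.945).

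Within the HSP90 machinery 1 of 7 members rose and 2 fell, against 17.0% and 18.1% of all genes. HSP90AA1, the stress-inducible cytosolic HSP90, read 15.88, 15.81, 15.88, 15.68 and 15.64 on the miR-1225-3p arrays against 14.93, 15.15, 15.37, 15.23 and 15.41. The groups did not overlap and the log2 fold change was 0.56 ± 0.131 (adjusted p = 0.0166). The rise was seen on 1 of its 3 probes, and averaging them gave 0.00 (adjusted p = 0.987). HSP90AB1, the constitutive cytosolic HSP90, read 12.61, 12.20, 12.38, 11.75 and 13.79 against 13.16, 13.06, 13.40, 13.19 and 13.41. Replicates 1 to 4 were below and replicate 5 above all scrambled arrays. This gave a log2 fold change of -0.70 ± 0.322 (adjusted p = 0.107), and it was -1.01 (adjusted p = 0.00135) without replicate 5.

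STIP1, which carries clients from HSP70 to HSP90, read 8.08, 7.62, 7.11, 6.34 and 9.45 on the miR-1225-3p arrays and 9.40, 9.19, 9.21, 9.21 and 9.33 on the scrambled arrays. Again replicates 1 to 4 lay below and replicate 5 above every scrambled array. The difference on the log2 scale was -1.55 ± 0.470 (adjusted p = 0.0317), and its other probe gave -2.52 (adjusted p = 0.0231). The call was lost in 8 of 10 single-array omissions, all but those of miR-1225-3p replicates 1 and 5 (-1.57 to -1.20, adjusted p between 0.0559 and 0.0746). FKBP4, an HSP90-bound immunophilin of steroid receptor complexes, fell by 0.72 on the log2 scale (SE 0.190, adjusted p = 0.0218), and 75th percentile scaling gave -0.25 (adjusted p = 0.288). Its call was also lost when replicate 2 (-0.66) or 3 (-0.69) of the miR-1225-3p group or replicate 2 of the scrambled group (-0.68) was left out. TRAP1, the mitochondrial HSP90, and AHSA1, an activator of the HSP90 ATPase, had log2 fold changes of -1.35 (adjusted p = 0.104) and -0.65 (adjusted p = 0.113), and PTGES3, the co-chaperone p23, of -0.02 (adjusted p = 0.947).

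In the mitochondrial chaperonin the chamber subunit rose. HSPD1 read 15.64, 15.45, 15.48, 15.28 and 15.31 on the miR-1225-3p arrays against 14.70, 14.82, 15.03, 14.87 and 15.16. All miR-1225-3p arrays were above all scrambled arrays, replicate 5 included. This gave a log2 fold change of 0.52 ± 0.134, a 1.43-fold rise (adjusted p = 0.021), with the call lost when replicate 2 (0.51) or 3 (0.50) of the miR-1225-3p group or replicate 4 of the scrambled group (0.50) was left out. HSPE1, the lid of the chamber, lies head to head with HSPD1 at chr2:197500379-197503449, beside HSPD1 at chr2:197486584-197500274 (GRCh38.p14). It read 14.03, 13.97, 13.90, 14.13 and 13.56 against 13.67, 13.58, 13.69, 13.65 and 13.64. Replicates 1 to 4 were above and replicate 5 below all scrambled arrays. The difference on the log2 scale was 0.27 ± 0.130 (adjusted p = 0.121) and reached 0.36 (adjusted p = 0.0111) without replicate 5.

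HSPB1, the ubiquitous small heat shock protein that holds unfolding proteins without ATP, read 13.38, 13.16, 13.33, 13.29 and 13.65 on the miR-1225-3p arrays and 14.16, 13.95, 13.61, 13.66 and 13.18 on the scrambled arrays. The groups overlapped through replicate 5 of each, and the log2 fold change was -0.35 ± 0.190 (adjusted p = 0.163), or 0.25 after 75th percentile scaling. HSPB11, named IFT25 in RefSeq and part of the intraflagellar transport machinery, was at 0.36 (adjusted p = 0.0747).

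Of the 7 TRiC/CCT subunits tested, CCT3 alone was called on the probe used for each gene, against 35.0% of all genes. It fell by 0.86 on the log2 scale (SE 0.229, adjusted p = 0.0228), with replicate 5 inside the scrambled range. The call was lost after 75th percentile scaling (-0.27, adjusted p = 0.158) and when replicate 2 (-0.79) or 3 (-0.76) of the miR-1225-3p group or replicate 3 of the scrambled group (-0.83) was left out. TCP1, the first subunit of the ring, read 9.47, 9.20, 8.93, 7.99 and 9.96 against 9.19, 9.29, 9.81, 9.55 and 10.14. Its groups overlapped, with a log2 fold change of -0.49 ± 0.340 (adjusted p = 0.269). The 5 other subunits ran from -0.37 (CCT7, adjusted p = 0.112) to 0.50 (CCT4, adjusted p = 0.0503). The other probe of CCT4 was called higher (0.45, adjusted p = 0.0307 over all kept probes), as was the other probe of TCP1. Although the subunits form one ring, their fold changes had a median of 0.01 and both signs.

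Leaving out miR-1225-3p replicate 5 raised the number of members called from 19 to 31, against 55.4% of all genes. All 19 were among the 31, each with a larger fold change in size, and the 12 members added were HSPA13, HSPE1, HSPB11, DNAJC9, CCT2 and CCT4, which were higher, and DNAJA1, DNAJB6, HSP90AB1, TRAP1, AHSA1 and CCT7, which were lower. Replicate 5 lay within the scrambled range for 28 of the 46 members (60.9%) and for 65.7% of all genes. The share of all called genes that grew without it was not computed, so the growth does not single out the members. The 27 members not called with all arrays had log2 fold changes from -1.35 to 0.50, and 5 of them had an unadjusted p under 0.05. Of the 19 calls 8 remained whichever single array was left out: HSPA1A, DNAJA2, DNAJC2, DNAJC8, BAG1 and HSP90AA1 higher, and DNAJB1 and BAG3 lower. The share of all genes that kept a call in every omission was not computed. The same 8 were called in the same direction after 75th percentile scaling and after quantile normalization. None of the 8 was called without normalization between arrays or with replicate number as a block. HSP90AA1 was also not called when its probes were averaged. Leaving out miR-1225-3p replicate 2 or replicate 3 left 8 members called in each case, against 12.3% and 13.0% of all genes, and leaving out scrambled replicate 2 or scrambled replicate 4 left 11 and 12, against 19.3% and 17.7%.

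**Figure D4:**
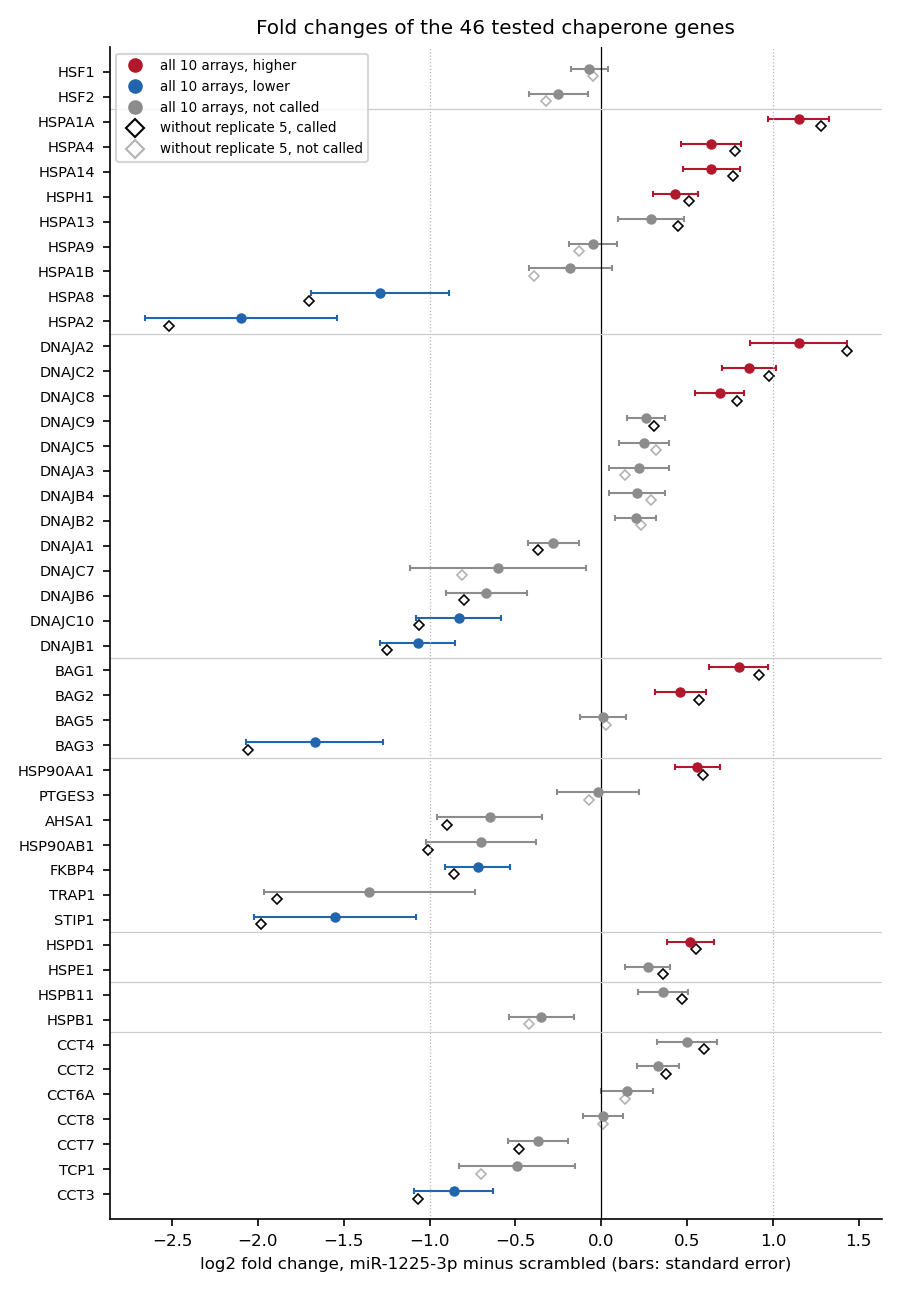
Log2 fold change (miR-1225-3p minus scrambled) of the 46 tested genes by role, with circles and standard error bars for all 10 arrays and diamonds for the fit without miR-1225-3p replicate 5. The diamonds lie farther from 0 than the circles for all 19 called genes, and dotted lines mark a fold change of 2.

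The arrays lay on 2 slides, each with both groups, so the comparison could be made within a slide. With the slide as a block 19 members were called, against 30.4% of all genes, and these were the 11 risen and 8 fallen members named above. Slide 1, with miR-1225-3p replicates 1 and 2 and scrambled replicates 1, 3 and 5, gave 16 called members, against 25.9% of all genes. Slide 2, with miR-1225-3p replicates 3, 4 and 5 and scrambled replicates 2 and 4, gave 0 called members by limma. As 0.00% of all genes were called there, this count says nothing about the members. On slide 2 there were 5 members at an unadjusted p under 0.05, against 1220 of all 17379 genes. The sign of all 19 members was the same on both slides, but they had been called on these same arrays together. Such agreement is favoured by that choice, and its share among all called genes was not computed. For HSPA1A the within-slide values were 1.37 and 0.99, for HSPA8 -1.61 and -0.98, for BAG3 -2.23 and -1.24, and for DNAJB1 -1.04 and -1.17.

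There were 14 members with more than 1 kept probe, and in 5 of these the probes differed in sign. DNAJC10 was the clearest, since the probe with the higher signal was called lower (-0.83, adjusted p = 0.0308) and the other was called higher (0.68, adjusted p = 0.0279), over all kept probes. That second probe read 9.08, 9.02, 8.77, 8.83 and 8.06 on the miR-1225-3p arrays and 7.87, 8.17, 8.13, 7.97 and 8.19 on the scrambled arrays. No single direction can therefore be given for DNAJC10. TCP1 was -0.49 (adjusted p = 0.268) on the probe used and 0.60 (adjusted p = 0.0203) on the other, DNAJC5 was 0.25 (adjusted p = 0.184) and -0.49 (adjusted p = 0.0361), and DNAJB2 was 0.20 (adjusted p = 0.206) and -1.34 (adjusted p = 0.136). HSP90AA1 was 0.56 (adjusted p = 0.0175) on the probe used and -0.03 and -0.54 on the others, neither of which was called. HSF1 kept its sign, but its second bright probe gave -0.55 (adjusted p = 0.0373) where the probe used gave -0.07. HSPA4 also kept its sign, but its other probe was not called (0.24, adjusted p = 0.163). FKBP4, STIP1, HSPH1 and BAG1 were called in the same direction on all of their kept probes.

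**Figure D5:**
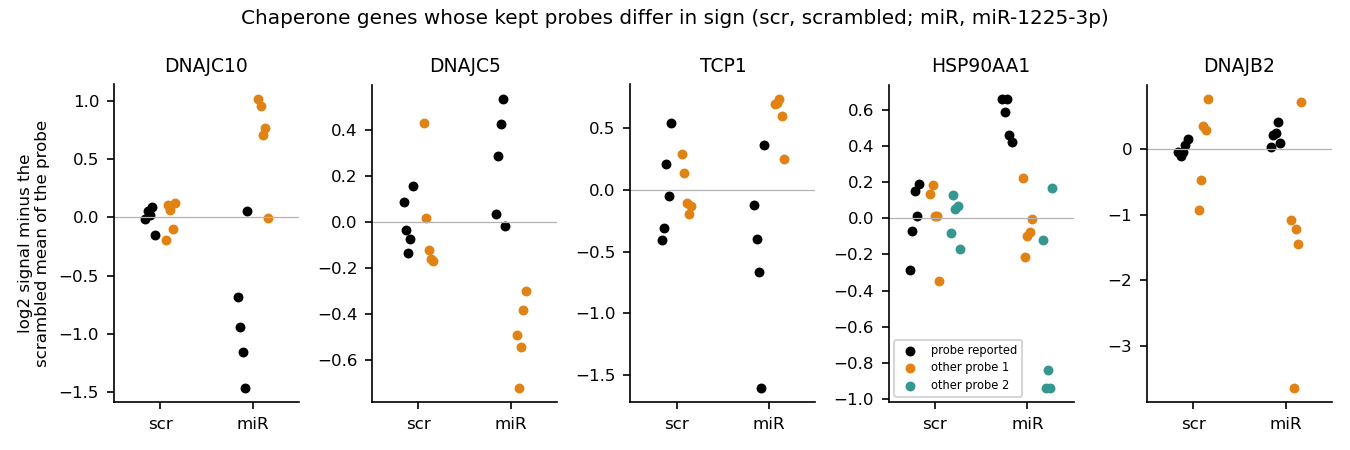
Log2 signal minus the scrambled mean of the same probe, for the 5 genes whose kept probes differ in sign, with 1 colour for each probe and 5 arrays in each group. The probes of DNAJC10 part in opposite directions on 4 of the 5 miR-1225-3p arrays.

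A further 73 genes of the same pathway, mostly other J-domain proteins, HSP90 co-chaperones, prefoldin subunits and mitochondrial proteases, were listed for comparison, and 57 of them were tested. Of these 28 changed (49.1%, against 35.0% of all genes), 13 higher (22.8%, against 17.0%) and 15 lower (26.3%, against 18.1%), and the median over the 57 was -0.04 on the log2 scale. The largest rises were those of DNAJC15, a mitochondrial J-protein (1.16, adjusted p = 0.0332), DNAJB5, a relative of DNAJB1 (1.08, adjusted p = 0.0154), and CRYAB, a small heat shock protein (0.97, adjusted p = 0.0138). CRYAB and DNAJB5 were separated between the groups and remained called in every single-array omission. For DNAJC15 scrambled replicate 5 had only an outlier spot and was dropped from the fit, and with such spots kept the value was 0.26 (adjusted p = 0.822). Averaging the probes of DNAJB5 gave 0.32 (adjusted p = 0.143). DNAJC15 was well above background on 3 miR-1225-3p and 2 scrambled arrays. This order of rises is that after cyclic loess. After normexp background correction DNAJC15 was at 0.36, DNAJB5 at 0.79 and CRYAB at 0.50. The highest value was then that of the prefoldin subunit PFDN4 (0.81), named after its value was seen.

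The largest called falls among these partners after cyclic loess were those of TTC4, CDC37L1 and CDC37, which encode HSP90 co-chaperones or their relatives. TTC4 was lower by -2.66 ± 0.842 (adjusted p = 0.0359), CDC37L1 by -2.49 ± 0.787 (adjusted p = 0.0356) and CDC37, which brings protein kinases to HSP90, by -2.04 ± 0.631 (adjusted p = 0.0335). CDC37 read 9.14, 8.29, 8.25, 7.38 and 11.35 on the miR-1225-3p arrays and 10.47, 10.45, 11.15, 11.00 and 11.53 on the scrambled arrays, with replicate 5 alone inside the scrambled range. Of the 5 miR-1225-3p arrays, 2 gave a signal well above background for TTC4 and 3 for CDC37L1, and after normexp background correction TTC4 was at -0.94 (adjusted p = 0.0884) and CDC37L1 at -1.03 (adjusted p = 0.0251). The order of the falls thus changed with the background correction. After normexp the lowest values were those of CDC37 (-1.79), LONP1, a mitochondrial protease (-1.50), and GRPEL2, a nucleotide exchange factor of mitochondrial HSP70 (-1.21), of which LONP1 and GRPEL2 were named after their values were seen. The calls of TTC4 and CDC37 were lost when any array but miR-1225-3p replicate 5 was left out, and that of CDC37L1 in 8 of 10 omissions, all but those of miR-1225-3p replicates 1 and 5.

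Set against the promoter sequences shown above, the 6 members with a heat shock element were spread over all outcomes. HSP90AA1 (0.56 on the probe used) and HSPD1 (0.52) rose, HSPA8 (-1.29) fell, and HSP90AB1 (-0.70), DNAJB6 (-0.67) and DNAJA1 (-0.28) were not called. The other probes of HSP90AA1 gave -0.03 and -0.54. The call of HSPD1 was lost in 3 and that of HSPA8 in 9 of 10 single-array omissions. Among all genes 35.0% were called. The other members had no exact match, or no promoter to search, and are not shown to lack an element. Of the pathway partners, 2 of the 59 with a promoter held the element, HSPA6 at -0.41 (adjusted p = 0.145) and CHORDC1 at 0.29 (adjusted p = 0.194), and neither was called.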

How the data were processed

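Total RNA of 10 MEG-01 samples was copied into cDNA and then into Cy3-labelled cRNA, which was hybridized in 1 colour to Agilent arrays. The authors deposited, for each array, the processed signal, an intensity from which Feature Extraction (version 10.7.3.1 in the submitters' notes and the scanner files, while the methods name another version) had subtracted background, with spot flags, and a table of normalized log2 values used as an alternative. As in the methods, processed signals were taken to log2 and put through cyclic loess (3 iterations, limma 3.58.1 in R 4.3.3). The 4259 control spots and outlier spots were left out, spots of a probe were averaged, and 20648 probes were kept that exceeded background clearly (Agilent's flag) on 3 or more arrays of 1 group. Accessions of 24910 of 42405 probes matched a RefSeq symbol, and a gene took its kept probe of highest mean signal. Groups were compared with limma and Benjamini-Hochberg adjustment over 17379 genes. The fit was tested on simulated data. The number of arrays limits the precision.

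Genes named with values were 13 fixed members, up to 3 called members of largest change in each role, and the 3 largest called rises and falls of partners. Members, lists and this rule were chosen with earlier results of these data known. Sequences came from RefSeq tables, and seed matches in mRNAs were not analysed here. Alternatives covered scaling, background, filters, probes, tests, slide and replicate blocks and single arrays left out. Replicate numbers were not used as pairs in the main comparison. Between samples of the same number, deviations from the group means had correlations from -0.401 to 0.0723. These correlations cannot tell whether such samples shared a culture or a transfection.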

Additional observations from a re-analysis of the deposited data

Results flagged for a closer look

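Among 46 groups of 4 or 5 values examined, 3 held a value far from the others, and chance flags about 1 in 20. BAG3 read 7.70 on miR-1225-3p replicate 5, and the other 4 arrays of the group read between 5.53 and 5.89. DNAJC2 read 12.13 on the same array, against 12.71 to 12.80. For both genes the array was nearer to the scrambled arrays than its group was. CDC37L1 read 7.54 on scrambled replicate 5, against 7.73 to 7.81 on the other scrambled arrays.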

How the results depend on the processing

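The number of members called (19) and of those with a fold change over 2 (7) stayed within 1.5 times in 17 and 16 of 26 settings. Without normalization between arrays 1 member was called, with a fold change over 2, and 1 partner, against 7.28% of all genes. With array weights 38 members and 43 partners were called, against 67.7% of all genes. Within slide 2 by limma 0 members, 0 with a fold change over 2 and 0 partners were called, as were 0 of all genes. That fit gave 5 members and 3 partners at an unadjusted p under 0.05, against 1220 of all 17379 genes. Within slide 1 there were 17 called partners, against 25.9% of all genes. With replicate number as a block 0 members, 0 with a fold change over 2 and 0 partners passed, as did 0 of all 17379 genes. At an unadjusted p under 0.05 by limma this block gave 23 members and 32 partners, against 7474 of all 17379 genes. Whether samples of the same number were paired is not known. Scaling by the 75th percentile gave 12 members with a fold change over 2, against 3589 of all genes. The members' median was then 0.49, against 0.16 for all genes. Quantile normalization gave a median of 0.18, against 0.08 for all genes. Normexp gave 4 members with a fold change over 2, against 1191 of all genes. No filter on dim probes gave 12 partners, against 9.67% of the 35267 genes then tested. Leaving out single arrays gave 8 to 31 members and 9 to 39 partners, against 12.3% to 55.4% of all genes. With a fold change over 2 there were 3 to 11 members, against 1230 to 4893 of all genes. Medians of the members were -0.02 to 0.11. The methods' t-test called 19 members after Benjamini-Hochberg, against 26.9% of all genes. It gave 26 members at an unadjusted p under 0.05, against 8284 of all 17379 genes. The sign turned for HSF1 with 75th percentile scaling (0.57), quantile normalization (0.09) and no normalization (0.15), for HSF2 (0.21), HSPA1B (0.36) and HSPB1 (0.25) with 75th percentile scaling, and for HSP90AA1 (0.00) and TCP1 (0.06) when probes were averaged. The cause was not tested.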
